A study of Mus musculus with 3 samples.

Results

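The glutathione transferases and the target genes of the transcription factor NRF2 were examined as a set of 40 genes, among 37073 genes named on the arrays. Members were chosen by name, as every non-control probe whose gene name on the array was one of the 40, and all 40 were found, on 63 probes. The 40 names were chosen with earlier results of these data known. The set holds 22 glutathione transferases (4 of the alpha class, 7 mu, 2 pi, 3 theta, 3 of the omega, kappa and zeta classes and 3 membrane-bound), 11 NRF2 targets of glutathione synthesis, the thioredoxin system and quinone or haem metabolism, 5 enzymes that act on aldehydes, epoxides and alcohols, and NRF2 itself (Nfe2l2) with its repressor Keap1. For a member with several probes, the probe that was brightest on average was read.

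NRF2 is a transcription factor that KEAP1 holds in the cytoplasm and hands to degradation. When electrophiles or oxidants modify cysteines of KEAP1, NRF2 escapes, enters the nucleus, pairs with small MAF proteins and binds antioxidant response elements near genes that make glutathione, reduce quinones and peroxides, or conjugate toxic molecules. Glutathione transferases join glutathione to electrophiles, and the alpha-class enzymes in fat and liver are known for clearing products of lipid peroxidation such as 4-hydroxynonenal.

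Epididymal fat of male C57/BL mice aged 20 weeks was digested with collagenase and parted by spinning. The lower phase of a first spin at 9 g for 1 s gave stromal vascular cells (SVC). This age and this speed are those of the sample records, and the methods of the study give other values. The floating cells were spun again at 226 g for 3 min, which left mature white adipocytes on top (MWA, named MA in the records) and small proliferative adipocytes in the sediment (SPA). SVC and SPA were grown in DMEM to 90% confluence before RNA was taken, while no culture is described for MWA, and the sample titles give MWA another date, so cell type, culture and date cannot be told apart wherever MWA is compared. No group carries a transgene or a treatment, and how many animals stand behind an array is not given in the sources used here. Each group is 1 array, so no difference below has a replicate check and no test or p-value can be offered.

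Levels are log2 values of the processed signal relative to the 75th percentile of the same array, so a level of 0 equals that percentile, and a log2 ratio is the difference of 2 such levels. Levels of different probes cannot be set against each other, so only ratios are compared between genes. A probe not well above background has only an upper bound on its level, and a ratio against it is written as "at least". Feature Extraction marked 58.6% to 61.4% of the spots on an array as well above background, no spot as saturated, and the lowest level so marked lay at -4.95 in SVC, -5.14 in SPA and -5.15 in MWA. Probes spotted 10 times had a median SD of 0.038 to 0.046 on the log2 scale within an array. Between probes of 1 gene, the ratios spanned a median of 0.23 for SPA over SVC, 0.46 for MWA over SPA and 0.43 for MWA over SVC, on the log2 scale. Of 6 adipocyte markers, 6 had a higher level in SPA than in SVC and 6 a higher level in MWA than in SPA, with adiponectin (Adipoq) at 1.56 in SPA, 8.44 in MWA and not well above background in SVC.

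The signals of Gsta2 and Gm10639 cannot be assigned to 1 gene, and their probes are shown for that reason. The first 30 bases of each probe, 5′ to 3′, are given below, with the base that differs in capitals.
Gsta2: gccacagatactggcctctaatTgtttgca
Gm10639: gccacagatactggcctctaatGgtttgca
Counted from 1 at the 5′ end of the probe, with the base of the Gsta2 probe first, the difference is T23G. Over the first 53 of their 60 bases the probes had 52 bases in common, and beyond these the Gm10639 probe is shifted by 1 base. Among all non-control probes, no other pair of a member with a differently named gene shared a run of 25 bases. The probes lie on chromosome 9 of mm9, at chr9:78178856-78178915 on the minus strand for Gsta2 and at chr9:78153243-78153302 on the plus strand for Gm10639. The read probe of Gstp1 likewise carries an accession of Gstp2, so those members may share signal as well.

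In SPA, most of the set stood above SVC. Of the 40 members, 38 could be read in this comparison. A higher level in SPA was found for 37 of them, against 57.7% of all genes. Of these 37, Gstm5, at a log2 ratio of 0.03, fell to -0.02 with quantile normalization and to -0.01 with the percentile over detected probes. At least 2-fold higher were 23 members, against 3.92% of the 22548 genes that could be read, and none was at least 2-fold lower, against 3.27%. At least 5-fold higher, the rule of the study, were 5 members (Gsta2, Gm10639, Slc7a11, Srxn1 and Adh7), against 0.324% of all genes, and 0 members were at least 5-fold lower, against 0.355%. Gsta2 and Gm10639 count as 2 of the 5 members, though their signals cannot be assigned to 1 gene. The median log2 ratio was 1.12 over the members and 0.07 over all genes. With the normexp background correction 2 members passed 5-fold, Gsta2 and Gm10639, while Slc7a11 came to a log2 ratio of 2.19, Srxn1 to 2.32 and the dim Adh7 to 1.47. Over all genes, 30 in place of 73 were at least 5-fold higher with that correction.

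**Figure D1:**
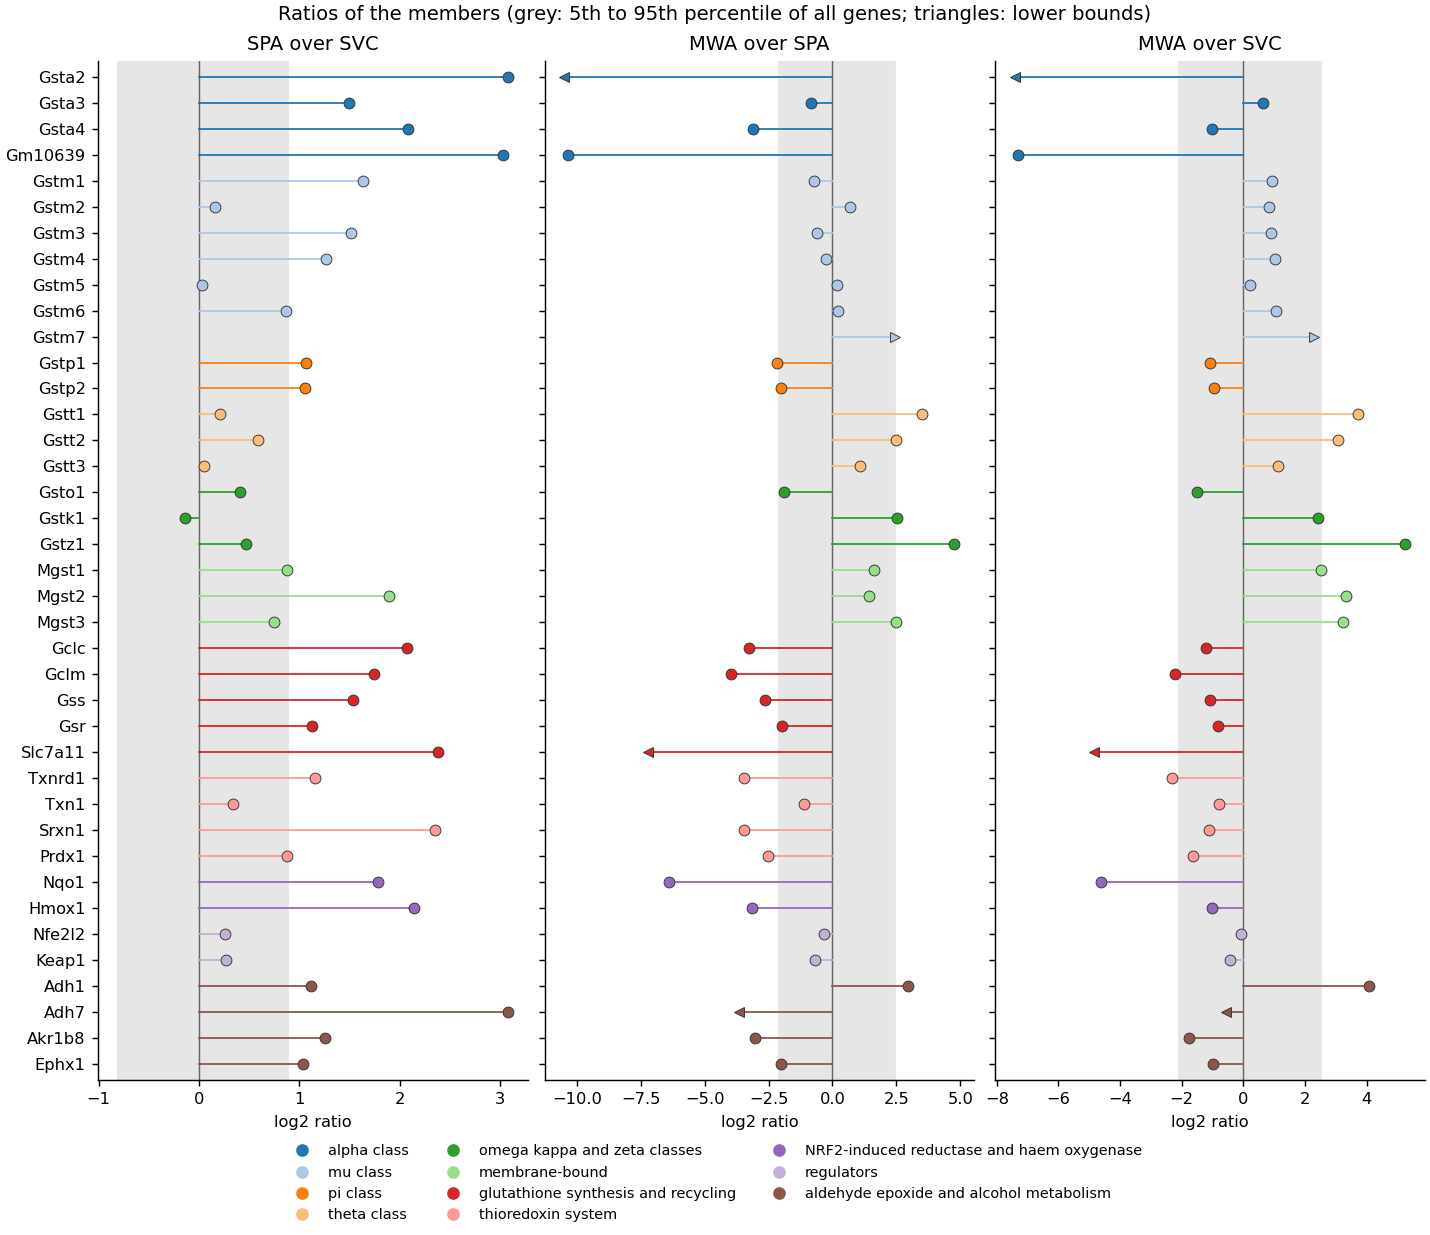
Log2 ratio of each of the 39 members that could be read, for SPA over SVC, MWA over SPA and MWA over SVC, with 1 array per group. Circles are measured ratios, triangles are lower bounds where the dimmer array was not well above background, and the grey band holds the 5th to 95th percentile of all genes. Nearly all members lie right of 0 in SPA over SVC, whereas the alpha, pi and NRF2 target rows lie left of 0 in MWA over SPA and the theta, kappa, zeta and membrane-bound rows lie right of it.

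Of the transferases, Gsta2, Gm10639 and Gsta4 of the alpha class had the highest ratios for SPA over SVC. Gsta2, an enzyme that conjugates glutathione to electrophiles and reduces lipid hydroperoxides, had a level of 2.27 in SVC and 5.35 in SPA, and was not well above background in MWA. Its ratio was 3.08 for SPA over SVC (8.47-fold), and its level in MWA was at least 1445-fold below SPA and at least 171-fold below SVC. Gm10639, a gene of the same cluster on chromosome 9, had levels of 3.62 in SVC, 6.65 in SPA and -3.70 in MWA. That made it 8.19-fold above SVC in SPA, 1313-fold below SPA in MWA and 160-fold below SVC in MWA. Both probes were bright in the cultured fractions, SPA above SVC, and at or near background in MWA. With the normexp correction, which lifts dim signals, the log2 ratios of MWA over SPA shrank from a bound of -10.50 to -7.89 for Gsta2 and from -10.36 to -8.71 for Gm10639.

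Gsta4, the alpha-class enzyme with a known preference for 4-hydroxynonenal, was measured on all 3 arrays at chr9:78046172-78047344 (mm9, a probe that spans an intron). It read 2.83 in SVC, 4.91 in SPA and 1.81 in MWA, highest in SPA and lowest in MWA. SPA stood 4.25-fold above SVC, and MWA stood 8.58-fold below SPA and 2.02-fold below SVC.

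Gsta3, known in the mouse for conjugating an epoxide of aflatoxin and encoded on chromosome 1 rather than in the chromosome 9 cluster, differed from the other alpha members in MWA. It read 4.14 in SVC, 5.63 in SPA and 4.77 in MWA, so that MWA lay between the other arrays. SPA exceeded SVC 2.82-fold, MWA was 1.81-fold below SPA, and MWA was 1.56-fold above SVC. The second probe gave nearly the same ratios, with log2 values of 1.43, -0.82 and 0.61. Another, dim probe had levels of -4.27 in SVC and -2.27 in SPA and was not well above background in MWA. There it was at least 7.34-fold below SPA and at least 1.84-fold below SVC. The direction of Gsta3 between MWA and SVC therefore depends on the probe.

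**Figure D2:**
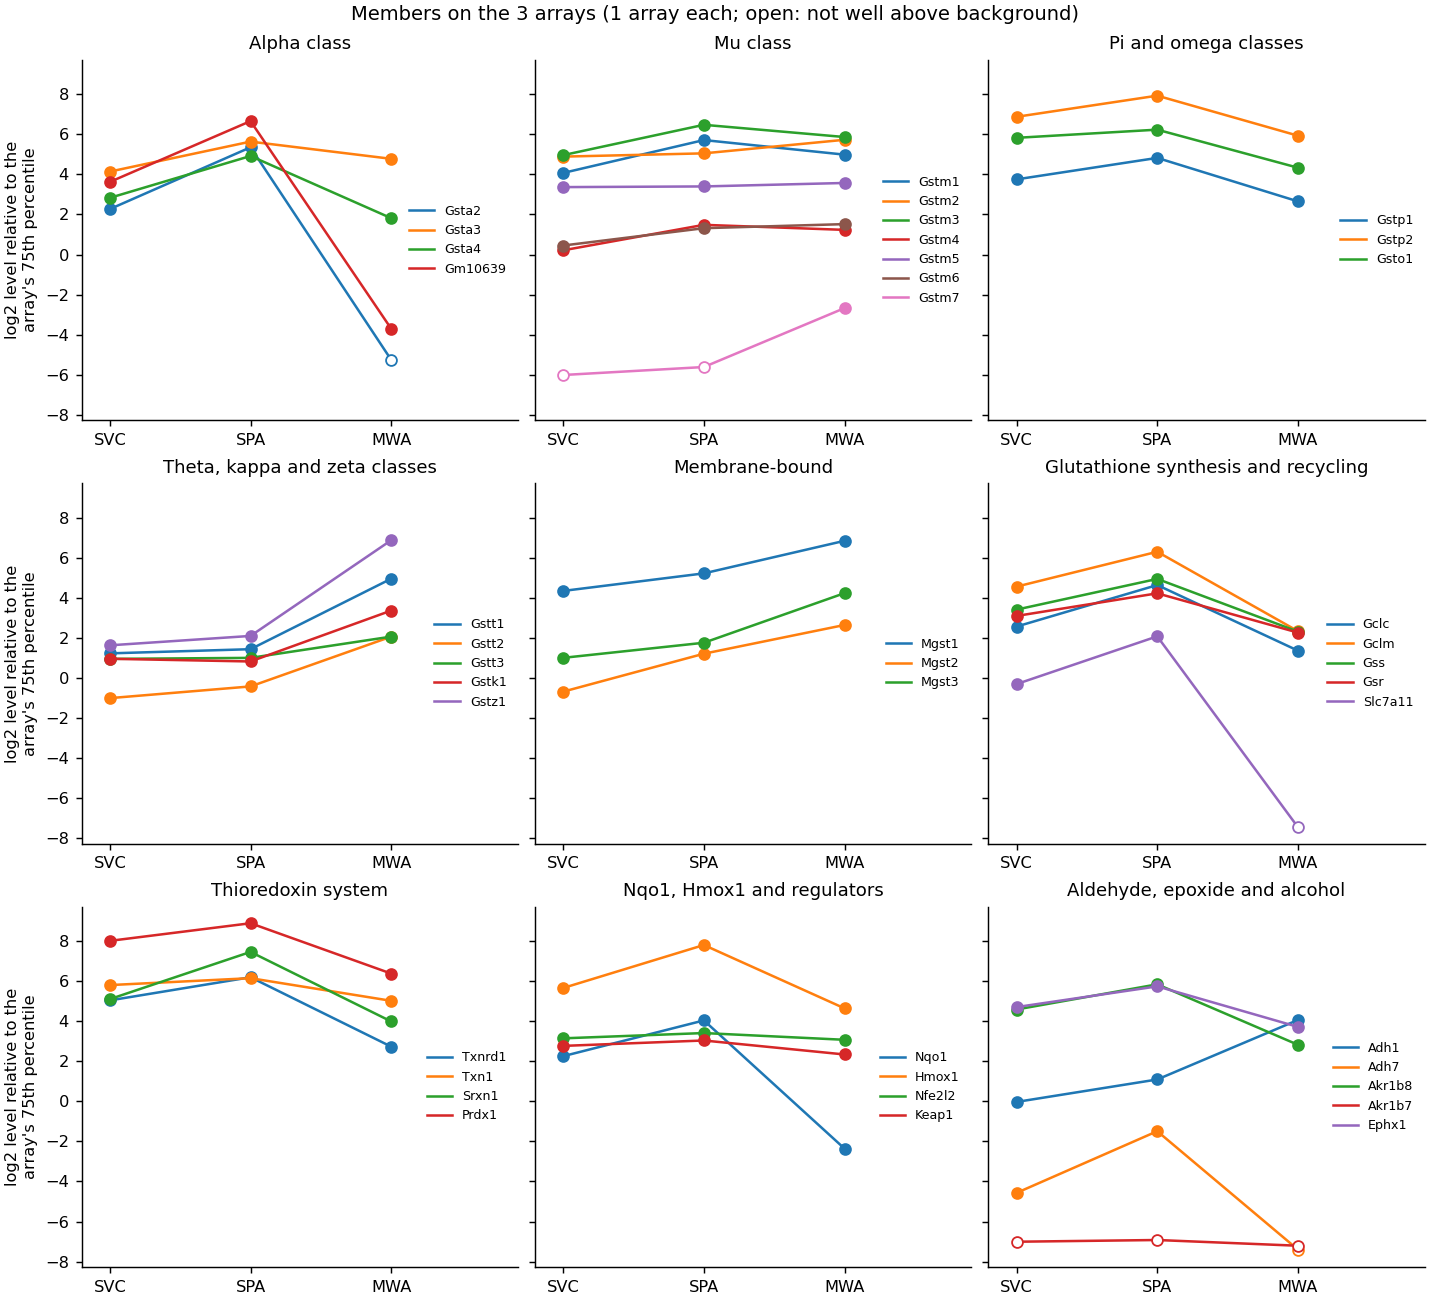
Log2 level of each member relative to the 75th percentile of its array (vertical axis) on the SVC, SPA and MWA arrays (horizontal axis), in 9 panels by enzyme class. Each point is 1 array, and open points were not well above background. Gsta2, Gm10639, Nqo1 and Slc7a11 drop steeply in MWA, while Gsta3 stays at 4.77 and the zeta-class Gstz1 climbs to 6.87.

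The NRF2 targets outside the transferases, against which the alpha class can be set, were 11 genes. On the probes read, all of them had a level in SPA above that in SVC and a level in MWA below both. The share of all genes with this order was not counted. Nfe2l2 and Keap1 had the order as well, with ratios under 2-fold in every comparison. For SPA over SVC, 9 of the 11 were at least 2-fold higher, against 3.92% of all genes, with a median log2 ratio of 1.74, whereas the 4 alpha members, all at least 2-fold higher, had a median of 2.56. For MWA over SPA, all 11 were at least 2-fold lower and 9 at least 5-fold lower, against 17.9% and 3.98% of all genes, with a median of -3.27, and 3 of the 4 alpha members were at least 5-fold lower, with Gsta3 the exception. For MWA over SVC, 9 of the 11 were at least 2-fold lower, against 18.1%, with a median of -1.20, and Gsta2, Gm10639 and Gsta4 were at least 2-fold lower while Gsta3 was not. The alpha-class median came to -6.73 for MWA over SPA and -4.17 for MWA over SVC with the bound of Gsta2 included, but -3.10 and -1.01 over the 3 members measured on both arrays. Gsta2, Gm10639 and Gsta4 therefore had the same order of levels over the arrays as the 11 targets, SPA highest and MWA lowest. Gsta3 did not have this order on its brighter probes, but had it on its dim probe.

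Glutathione synthesis and recycling showed this order in every member. Gclc, the catalytic subunit of glutamate-cysteine ligase, which sets the pace of glutathione synthesis, had levels of 2.56 in SVC, 4.63 in SPA and 1.36 in MWA, 4.21-fold above SVC in SPA and 9.67-fold below SPA in MWA. Its modifier subunit Gclm had levels of 4.55, 6.29 and 2.33 in the same order, a 3.34-fold higher SPA level and a 15.6-fold lower MWA level. Gss, glutathione synthetase, had levels of 3.41, 4.94 and 2.31, and Gsr, glutathione reductase, had levels of 3.09, 4.22 and 2.26. For both enzymes the SPA level was the highest, 2.89-fold over SVC for Gss and 2.19-fold for Gsr.

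Slc7a11, the cystine-glutamate exchanger that brings in the sulphur for glutathione, went furthest in this group. Its level was -0.31 in SVC and 2.07 in SPA, and in MWA it was not well above background. That is 5.21-fold above SVC in SPA, and at least 149-fold below SPA in MWA. The log2 ratio behind this bound, -7.22, came to -4.76 with the normexp correction and to -4.97 with the median of its probes. On all 4 of its probes it stood higher in SPA than in SVC, the dimmest by a bound of at least 1.26-fold only, and none of the 4 was well above background in MWA.

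Of the thioredoxin system, Srxn1, sulfiredoxin, which repairs overoxidised peroxiredoxins, had the highest SPA over SVC ratio. It had levels of 5.09 in SVC, 7.45 in SPA and 3.98 in MWA, 5.12-fold above SVC in SPA and 11.1-fold below SPA in MWA. Txnrd1, cytosolic thioredoxin reductase, had levels of 5.03, 6.19 and 2.72, so that SPA was 2.23-fold above SVC and the log2 ratio of MWA over SPA was -3.46. Txn1, thioredoxin, differed least, with levels of 5.80, 6.14 and 5.01. Prdx1, a peroxiredoxin that reduces hydrogen peroxide, had levels of 8.0, 8.88 and 6.37 on its brightest probe, a log2 ratio of 0.88 for SPA over SVC. Its other 3 probes gave 1.55, 1.70 and 2.09, so the brightest probe gave the smallest ratio of the 4. For MWA over SPA these 3 probes gave -3.43, -3.57 and -2.83, against -2.51 on the brightest.

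Nqo1, a quinone reductase often used as a readout of NRF2 activity, had levels of 2.25 in SVC, 4.03 in SPA and -2.36 in MWA. Its SPA level was 3.44-fold above SVC, and the MWA level was 84.3-fold below SPA and 24.5-fold below SVC. With the normexp correction these log2 ratios shrank from -6.40 to -5.60 and from -4.61 to -3.86. Hmox1, inducible haem oxygenase, had levels of 5.65, 7.79 and 4.63, a 4.42-fold higher SPA level and an 8.94-fold lower MWA level than in SPA. A second, dim Hmox1 probe had levels of -4.07, -1.23 and -2.23, so on it MWA was below SPA but 3.57-fold above SVC, the opposite of the bright probe. The direction of Hmox1 between MWA and SVC therefore depends on the probe, and the median of both probes gave a log2 ratio of 0.41 in place of -1.02.

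The transcripts of the regulators themselves differed little. Nfe2l2 had levels of 3.14 in SVC, 3.40 in SPA and 3.07 in MWA on its bright probe, and Keap1 had levels of 2.76, 3.03 and 2.34. The log2 ratios for SPA over SVC were 0.26 and 0.27, both under 2-fold, and those for MWA over SPA were -0.34 and -0.70. NRF2 activity is set mainly by the stability of its protein, which an array does not read. A dim second probe of Nfe2l2, at chr2:75529291-75529350 (mm9) where the bright probe is at chr2:75513771-75513830, had levels of -1.90, -1.57 and 1.01, and was 5.99-fold above SPA in MWA.

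Outside the alpha class, the transferases split by class in MWA. At least 2-fold below SPA in MWA were 20 of the 40 members, against 17.9% of the 23953 genes that could be read, and 10 were at least 2-fold higher, against 15.8%. At least 5-fold lower were 14 members, against 3.98% of all genes, and at least 5-fold higher were 7, against 5.49%. The 5-fold higher members were Gstt1, Gstt2, Gstk1, Gstz1, Mgst3, Adh1 and Gstm7, the last by a bound. Between MWA and SVC, 8 members were at least 5-fold higher, against 5.76% of 23351 genes, and 4 at least 5-fold lower, against 3.99%. With 2-fold, 12 were higher, against 17.3%, and 15 lower, against 18.1%, and quantile normalization turned this into 15 higher and 12 lower. With that normalization, 17.7% of all genes were at least 2-fold higher. The 3 comparisons share arrays, so their counts are not independent of each other.

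The mu class, cytosolic transferases encoded side by side on chromosome 3, had no member at least 2-fold below SPA in MWA. Gstm1 had levels of 4.07 in SVC, 5.71 in SPA and 4.98 in MWA. Gstm3 had levels of 4.96, 6.47 and 5.86. Gstm4 had levels of 0.21, 1.48 and 1.23. These 3 members were 2.41- to 3.12-fold above SVC in SPA and less than 2-fold below SPA in MWA, an order of levels like that of Gsta3, except that quantile normalization turned the MWA over SPA log2 ratio of Gstm3 from -0.61 to 0.15. Gstm2 and Gstm5 had log2 ratios of 0.16 and 0.03 for SPA over SVC, and of 0.68 and 0.17 for MWA over SPA. Gstm6 had levels of 0.45, 1.31 and 1.52, and its dimmer second probe was 3.33-fold above SPA in MWA, against 1.15-fold on the bright probe. The spot of that dimmer probe had an outlying local background in MWA. Gstm7 was well above background in MWA alone, at a level of -2.67, at least 5.52-fold above SPA, and with the normexp correction its log2 ratio came to 0.94. The read probe of Gstm1 is placed by the array annotation on chromosome 5 of mm9 (chr5:117082490-117082549), but a second Gstm1 probe at chr3:107815595-107815654 gave similar ratios, 2.84-fold above SVC in SPA and 1.60-fold below SPA in MWA.

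The pi class and omega-class Gsto1 were lowest in MWA, like the NRF2 targets. Gstp1 had levels of 3.75 in SVC, 4.82 in SPA and 2.65 in MWA. Gstp2 had levels of 6.87, 7.92 and 5.93. SPA exceeded SVC by 2.10-fold and 2.08-fold, and MWA was below SPA by 4.5-fold and 3.99-fold. With quantile normalization the log2 ratio of Gstp2 for MWA over SVC came to -0.10 in place of -0.94. Its ratio for MWA over SPA came to -1.33 in place of -2.00. Gsto1, which reduces dehydroascorbate and methylated arsenic, had levels of 5.82, 6.23 and 4.33, 1.33-fold above SVC in SPA and 3.73-fold below SPA in MWA.

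The theta, kappa and zeta classes and the membrane-bound enzymes had their highest level in MWA. Gstz1, the zeta-class enzyme that isomerises maleylacetoacetate in tyrosine breakdown, had levels of 1.63 in SVC, 2.09 in SPA and 6.87 in MWA. It stood 1.38-fold above SVC in SPA, and 27.4-fold above SPA in MWA on the bright probe at chr12:88505612-88505671 (mm9) or 43.7-fold on the second probe. The spots of that second probe had an outlying local background in SPA and in MWA. Gstt1 had levels of 1.22, 1.43 and 4.95, 11.4-fold above SPA in MWA. SVC and SPA were close to each other for both genes, and MWA stood apart.

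Gstt2 had levels of -1.01, -0.42 and 2.06, and Gstt3 had levels of 0.95, 1.00 and 2.06. Gstk1, the kappa-class enzyme of mitochondria and peroxisomes, had levels of 0.95, 0.82 and 3.36, and was the only member with a lower level in SPA than in SVC, by a log2 ratio of -0.13. The membrane-bound Mgst1, which protects membranes from peroxidation, had levels of 4.34, 5.21 and 6.84. Mgst2 had levels of -0.69, 1.21 and 2.64, and Mgst3 had levels of 1.00, 1.75 and 4.23. All 3 membrane-bound enzymes stepped up from SVC to SPA and again to MWA, where their log2 ratios over SVC were 2.50, 3.33 and 3.23. A dim second Mgst3 probe was well above background in MWA alone, at least 4.42-fold above SPA and at least 3.89-fold above SVC.

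Of the enzymes of aldehyde, epoxide and alcohol metabolism, Akr1b8, an aldo-keto reductase, had levels of 4.58 in SVC, 5.83 in SPA and 2.82 in MWA. Ephx1, microsomal epoxide hydrolase, had levels of 4.70, 5.73 and 3.71. Both had the order of the NRF2 targets. Adh7, which oxidises retinol, had levels of -4.57 and -1.49 in SVC and SPA and was not well above background in MWA, an 8.45-fold higher level in SPA than in SVC from a dim probe. Adh1, the class I alcohol dehydrogenase of fat and liver, had levels of -0.03, 1.09 and 4.06, and was 7.83-fold above SPA in MWA. Akr1b7 was not well above background on any array. The read spots of Ephx1, Gss, Txn1, Txnrd1 and Akr1b8 had an outlying local background on at least 1 array, that of Ephx1 on all 3. Ephx1, Txn1 and Akr1b8 have 1 probe each, so they had no ratio once such spots were removed.

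**Figure D3:**
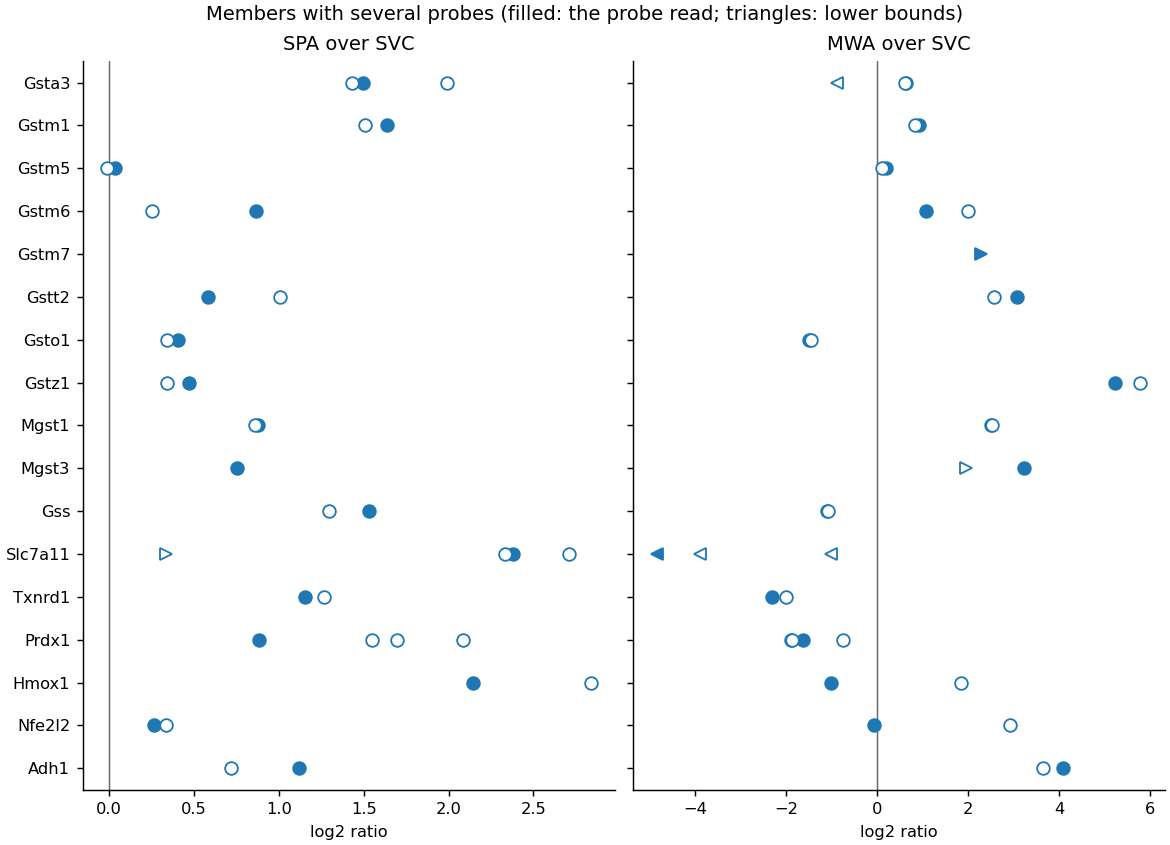
Log2 ratios of SPA over SVC and of MWA over SVC for the 17 members with 2 or more probes, 1 point a probe. Filled points are the probes that were read, open points the others, and triangles lower bounds. The probes of Mgst1, Gsto1, Gstm5 and Gstm1 nearly coincide, whereas those of Hmox1 and Nfe2l2 lie apart in MWA over SVC.

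Further genes of the pathway were read from 4 lists that hold no member, with 61 of 65 listed genes on the array. These lists, like the members, were chosen with earlier results of these data known, so their shares are no separate check. Of 22 further NRF2 targets, 13 were at least 2-fold above SVC in SPA and 0 at least 2-fold lower, against 3.92% and 3.27% of all genes, and 12 were at least 2-fold below SPA in MWA, against 17.9%. Their median log2 ratios were 1.18 (SPA over SVC) and -1.27 (MWA over SPA). Cbr3, a carbonyl reductase, had levels of 4.44, 6.09 and 2.64. Abcc4 and Abcc1, exporters that carry glutathione conjugates among other cargo, had SPA over SVC log2 ratios of 1.93 and 1.38 and MWA over SPA log2 ratios of -3.85 and -3.41. Aox1, aldehyde oxidase, and Me1, malic enzyme, were instead at least 2-fold above SPA in MWA, with log2 ratios of 2.32 and 1.28.

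The other lists had fewer such genes between the cultured fractions. Of 13 further antioxidant genes, 2 were at least 2-fold above SVC in SPA, against 3.92% of all genes, catalase (Cat) with a log2 ratio of 2.0 and Prdx6 with 1.24. At least 2-fold above SPA in MWA were 4, against 15.8% of all genes. Of 19 further glutathione enzymes, 2 were at least 2-fold higher in SPA and 2 lower, against 3.92% and 3.27% of all genes. Gpx3, the secreted glutathione peroxidase, was among those lower, at levels of 2.37 in SVC and 1.10 in SPA, and it reached 4.29 in MWA. Among the 7 partners and repressors of NRF2, 0 were at least 2-fold apart between SPA and SVC, and the repressor Bach1 had levels of 0.62, 1.07 and 1.75.

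**Figure D4:**
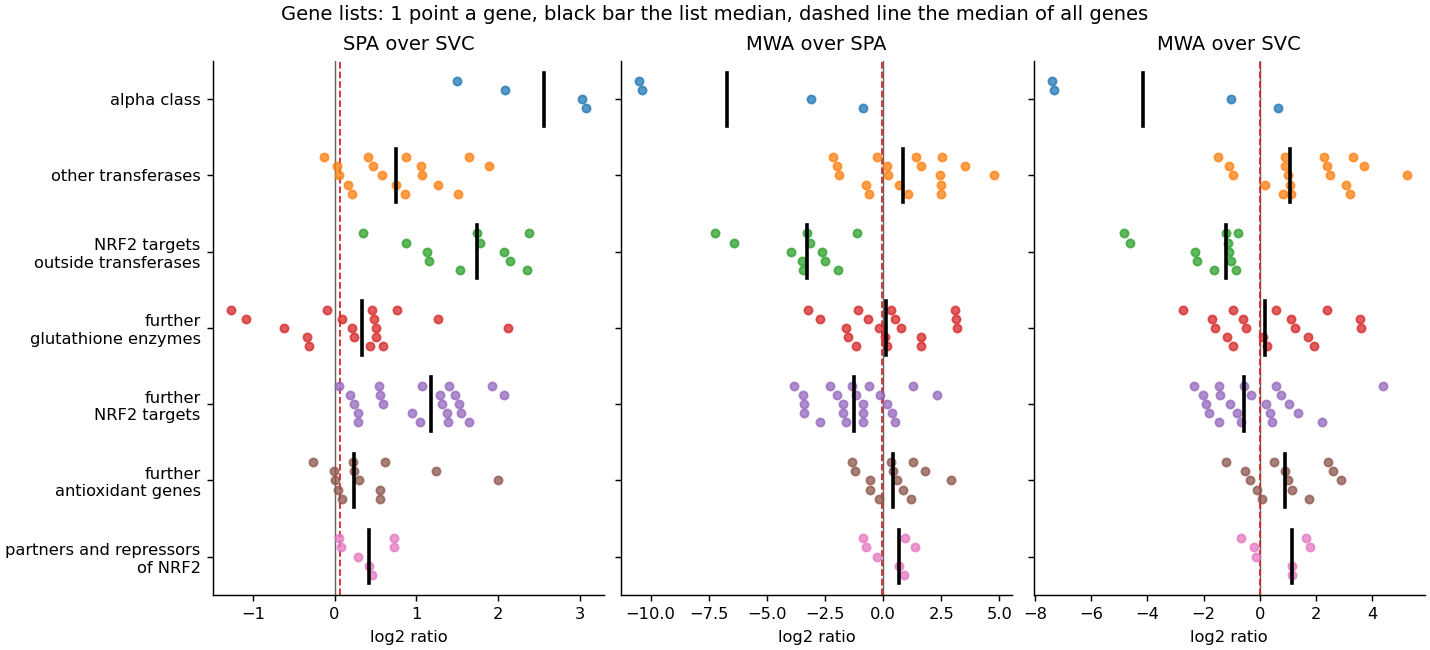
Log2 ratios of the alpha class, the other transferases, the NRF2 targets outside the transferases and the 4 further lists, for each comparison, 1 point a gene. Black bars are list medians and the dashed line is the median of all genes. The alpha class holds Gsta2 and Gm10639 as separate points, though their signals cannot be assigned to 1 gene. In SPA over SVC the bars of the alpha class (2.56), of the NRF2 targets (1.74) and of the further NRF2 targets (1.18) lie right of the other lists.

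Markers of other cells differed between the same arrays. Of 6 macrophage markers, all well above background on every array, 1 was at least 2-fold below SVC in SPA (C1qa, log2 ratio -3.19), against 3.27% of all genes. At least 2-fold below SPA in MWA were 3 (Adgre1, Cd68 and Lyz2), against 17.9% of all genes. In MWA, C1qa stood 11.3-fold above SPA, and Mrc1 had a log2 ratio of 0.79 over SPA. The summed scaled signal of the macrophage list came to 529 in SVC, 586 in SPA and 180 in MWA (in units of the 75th percentile), most of it from Lyz2, and without Lyz2 it came to 102, 138 and 57.1. Of the 6 macrophage markers, 4 had a lower level in MWA than in SPA, Csf1r among them at a log2 ratio of -0.40, and 2 had a higher level. Of 6 mesothelial markers, 5 were at least 2-fold below SVC in SPA, with a summed signal of 35.8 in SVC, 9.52 in SPA and 22.3 in MWA. All 5 endothelial markers were at least 5-fold above SPA in MWA, against 5.49% of all genes, and haemoglobin (Hba-a1) had a level of 8.38 in MWA against -2.52 in SPA. The theta, kappa, zeta and membrane-bound enzymes were also highest in MWA. So were the adipocyte markers, with a summed signal of 15.4 in SPA and 1490 in MWA. No marker of 8 for epididymal epithelium was well above background on any array. In such mixed fractions, fewer cells of a type and less RNA per cell cannot be told apart, and the part of these cells in the members' ratios was not tested.

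The start regions of the members were searched for the core of the antioxidant response element, TGACNNNGC, on both strands. RefSeq windows of GRCm38.p6, each 300 bases from 250 before a start site to 50 after it, were given for 35 of the 40 members, and Gsta4, Gstt2, Gclc, Gsr and Hmox1 had none. Of the 35, 9 had a match (25.7%), whereas 14.0% of all 27025 symbols with such windows had one. The matches are shown with 10 bases on each side, 5′ to 3′ on the strand of the gene and with the match in capitals, for the alpha-class member and the NRF2 targets that had one.
Gsta3: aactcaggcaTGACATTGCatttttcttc
Gclm: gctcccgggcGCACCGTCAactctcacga
Prdx1: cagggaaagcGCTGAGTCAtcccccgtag
Txnrd1: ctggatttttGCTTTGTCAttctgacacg
Srxn1: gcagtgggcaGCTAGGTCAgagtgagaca
The stretch shown for Gsta3 lies at chr1:21240454-21240482 with its match 121 bases before the start, and that for Gclm at chr3:122245413-122245441, with its match 134 bases before the start on the opposite strand. The Prdx1 stretch lies at chr4:116685456-116685484 and the Txnrd1 stretch at chr10:82859104-82859132, with matches 133 and 92 bases before the start, and the Srxn1 stretch at chr2:152105542-152105570 with its match just after the start, all on the plus strand and all with the match on the opposite strand. Gstm5, Gstm7, Mgst1 and Nfe2l2 also had a match. The Gsta2, Gm10639, Slc7a11 and Nqo1 windows had none, which says only that these letters are not in these stretches.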

How the data were processed

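Gene expression was measured on 1 Agilent SurePrint G3 mouse array (1 colour, Cy3) for each of SVC, SPA and MWA, from 50 ng of total RNA, and the 3 arrays shared 1 slide and 1 scan. The authors deposited the intensity of every spot as written by Agilent Feature Extraction 10.7.3.1 (processed signal after background subtraction and detrending, raw signal, local background), and, per spot, that signal over a fixed constant of its array, which is a linear ratio. Data were log2-transformed and scaled to the 75th percentile of the 59305 non-control spots (processed signal 430 in SVC, 439 in SPA and 366 in MWA). Spots marked as outliers were left out, spots of a probe were averaged, and a gene was read at its brightest probe. Against a probe not well above background, the ratio was taken to the higher of its own level and the lowest level well above background on that array. Genes were called at 5-fold, the rule of the study, and at 2-fold. The number of arrays limits the precision.

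All 40 members were named by rule, and their other probes where they differed by over 1 on the log2 scale. The members and gene lists were chosen with earlier results of these data known, as was the set of 11 NRF2 targets. Gene names are those of the array. Of the 63 member probes, 53 had an accession in the RefSeq table of GRCm38.p6, 52 of them under the array's name alone, and array positions are in mm9. The 8 alternatives are given in the closing section. How calls were made was tested on simulated data. Python 3.11.15 with numpy 2.4.6, pandas 2.3.3 and matplotlib 3.10.9 was used, with R 4.3.3 and limma 3.58.1 for the normexp correction (offset 50).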

Additional observations from a re-analysis of the deposited data

How the results depend on the processing

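For the members past 5-fold, the medians of the alpha class and of the 11 NRF2 targets, and each member's ratio, 8 alternatives were run: the normexp correction, quantile normalization, a 75th percentile taken over detected probes, the deposited table, plain ratios for dim probes, genes measured on both arrays only, the median over each gene's probes, and the removal of spots whose local background was outlying. Of 911 values of single members under these alternatives, 875 moved by less than 1.5-fold, 35 moved further, and 1 that was past 2-fold reversed, Hmox1 in MWA over SVC, at 0.41 with the median of its probes. By that median Nfe2l2, under 2-fold on its bright probe, came to 1.12 for MWA over SPA and 1.42 for MWA over SVC. With the normexp correction, the members at least 5-fold above SVC in SPA numbered 2 in place of 5, and all such genes 30 in place of 73. The alpha-class median under that correction came to -5.49 for MWA over SPA and -2.94 for MWA over SVC. With only genes measured on both arrays, the members at least 5-fold below SVC in MWA numbered 2 in place of 4, since Gsta2 and Slc7a11 have no ratio there. All such genes numbered 740 in place of 932. The alpha-class median then came to -3.10 for MWA over SPA and -1.01 for MWA over SVC. The other 5-fold counts of members stayed within 1.5 times and the medians of the 11 NRF2 targets within 1.5-fold. Signal over background limits Adh7, Gstm7 and all ratios of Gsta2, Gm10639, Slc7a11 and Nqo1 in MWA. No paired analysis was possible because each group has 1 array.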
